A study of Mus musculus with 8 samples.

Results

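Cytosolic ribosomal protein genes were described in mouse embryonic stem (ES) cells as the 80 entries, of 23284 in the authors' deposited gene table, whose symbol names a protein of the cytosolic ribosome or a close paralog. The choice went by symbol alone: Rpl or Rps with a number and at most 1 of the letters a, l or x, the stalk genes Rplp0, Rplp1 and Rplp2, and Rpsa. Of the 80, 42 belong to the large subunit, 31 to the small subunit and 3 to the stalk, and 4 are paralogs (Rpl3l, Rpl10l, Rpl39l and Rps27l). The other 76 are called the core genes here. Entries with several names were left out, so Rpl34 is not among the members, and the symbol Fau, whose product releases Rps30, falls outside the choice.

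The groups were clone 6 with doxycycline, clone 6 without doxycycline, clone 7 with doxycycline and clone 7 without doxycycline. Clone 6 holds a transgene for Ctcfl, a paralog of the insulator protein Ctcf that is normally made in male germ cells, which doxycycline induces; clone 7 holds none. All cells were of a strain given as mixed. They were kept on embryonic fibroblast feeders and then plated without feeders for 48 h, with doxycycline at 2 µg/ml or without it. Each line is 1 clone, so a difference between lines cannot be told apart from a difference between clones. Total RNA was sequenced as 75 bp single-end reads in 8 libraries, 2 per group, which the sample titles mark with 2 different tags. The labels describe them as biological replicates without saying whether the cultures were separate. A deposited p thus rests on libraries whose spread may be technical. The spread of a single gene between the 2 libraries of a group is not known.

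Each level is the authors' deposited FPKM (fragments per kilobase of transcript, relative to mapped fragments), and both libraries of a group were combined into 1 value. No value carries an SD and library depth is unknown. Summed FPKM ran from 717813 to 737443 per group, and 12033 to 12092 genes reached 1 FPKM. Ctcfl stood at 0.995 FPKM in clone 6 with doxycycline, 0.403 in clone 6 without it, 0.498 in clone 7 with it and 0.513 in clone 7 without it, and in the authors' deposited table the clone 6 difference did not pass (p = 0.0062, q = 0.296). All 8 ES cell markers were above 0 in every group, with Pou5f1 at 1011, 1116, 1108 and 1080 FPKM in the same order of groups.

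Ribosomal proteins assemble with ribosomal RNA in the nucleolus into a small subunit, which decodes the mRNA, and a large subunit, which forms the peptide bond and carries the stalk that recruits elongation factors. The subunits hold 1 copy of nearly every protein, and the genes are known to be transcribed at high and similar rates in dividing cells. Many of their mRNAs begin with a run of pyrimidines (the TOP motif), through which mTOR signalling controls their translation. Ribosomal protein genes are also known for many processed pseudogenes in mammalian genomes, copies that resemble the spliced mRNA.

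Promoters of the members were read because the members share high levels. RefSeq's table (build GRCm38.p6, which is the mm10 sequence) held 250 bases before to 50 bases after the start for 59 of the 80 members by symbol, and for 27025 genes in all. CCGGAAG, the core site of ETS factors, was present on either strand in 24 of the 59 (40.7%), against 9.93% of all genes. GGGCGG, a GC box, was present in 35 (59.3%), against 38.2%. CTCTTT, a pyrimidine run, was present in 27 (45.8%), against 25.6%. Counted only on the sense strand from 20 bases before to 30 bases after the start, CTCTTT was present in 11 (18.6%), against 580 of all genes (2.15%). TATAAA, the TATA box, was present in 6 (10.2%), against 15.7%. AAGATGGC, which YY1 can bind, was present in 5 (8.47%), against 3.19%. GCATGCGC, which NRF1 can bind, was present in 3 (5.08%), against 3.05%. None of these motifs contains another, both strands were searched unless stated, and a match is a string in a window, not a tested site.

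The start regions of 9 members are shown, each running from 60 bases before to 30 bases from the RefSeq start, written 5′ to 3′ along the gene. Rpl41 is the member with the highest level, Rpl35 and Rps6 begin with a pyrimidine run at the start itself, and the other 6 are paralogs beside their partners. Capitals mark the ETS, pyrimidine or TATA string spelled out above, on either strand.
Rpl41 (chr10:128549139-128549228, minus strand): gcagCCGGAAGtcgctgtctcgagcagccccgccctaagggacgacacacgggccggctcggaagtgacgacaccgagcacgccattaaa
Rpl35 (chr2:39005102-39005191, minus strand): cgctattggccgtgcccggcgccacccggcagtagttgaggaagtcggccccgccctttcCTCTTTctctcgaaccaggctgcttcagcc
Rps6 (chr4:86857338-86857427, minus strand): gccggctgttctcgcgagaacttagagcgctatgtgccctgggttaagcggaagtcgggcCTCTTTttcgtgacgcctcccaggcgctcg
Rps27l (chr9:66946026-66946115, plus strand): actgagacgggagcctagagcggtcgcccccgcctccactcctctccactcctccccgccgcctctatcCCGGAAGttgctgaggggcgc
Rps27 (chr3:90213619-90213708, minus strand): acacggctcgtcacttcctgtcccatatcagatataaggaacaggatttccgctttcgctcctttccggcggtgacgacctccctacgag
Rpl39l (chr16:10170168-10170257, plus strand): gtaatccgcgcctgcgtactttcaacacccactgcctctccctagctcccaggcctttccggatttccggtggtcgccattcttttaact
Rpl39 (chrX:37085193-37085282, minus strand): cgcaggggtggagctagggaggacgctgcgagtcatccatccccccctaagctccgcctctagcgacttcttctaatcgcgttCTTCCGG
Rpl10l (chr12:66284372-66284461, minus strand): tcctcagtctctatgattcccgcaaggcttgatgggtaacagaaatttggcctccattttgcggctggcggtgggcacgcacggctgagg
Rpl10 (chrX:74270756-74270845, plus strand): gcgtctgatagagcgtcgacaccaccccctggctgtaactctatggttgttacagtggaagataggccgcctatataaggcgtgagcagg
In Rpl35 and Rps6 the capitals begin at the first transcribed base of the annotation. Rps27l held CCGGAAG shortly after its start, whereas the stretch of its partner Rps27 held none of the 3 strings. Rpl39 held CCGGAAG on the opposite strand, while the stretches of Rpl39l, Rpl10 and Rpl10l held none.

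The members together made up a large part of the measured transcripts at nearly the same share in each group. They held 26.8% of summed FPKM in clone 6 with doxycycline, 26.4% in clone 6 without it, 25.4% in clone 7 with it and 26.2% in clone 7 without it. Large subunit genes held 12.7%, 12.6%, 12.3% and 12.5% in that order. Small subunit genes held 12.1%, 11.8%, 11.3% and 11.7%. The stalk genes held 1.88%, 1.86%, 1.78% and 1.86%. The highest and lowest group shares of all members thus lay within 2 percentage points, and without replicate values their error is unknown.

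The median member stood at 2210 FPKM in clone 6 with doxycycline, 2186 in clone 6 without it, 2050 in clone 7 with it and 2076 in clone 7 without it. Of the 126 genes in the table with a mean of at least 1000 FPKM, 65 were core genes, and 57 of the 76 core genes were among the first 100 of all entries by mean. The median small subunit gene was higher than the median large subunit gene in each group, at 2586 against 1959 FPKM in clone 6 with doxycycline and 2452 against 1846 FPKM in clone 7 without it. The plot of levels shows a long plateau and a steep end of few genes.

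**Figure D1:**
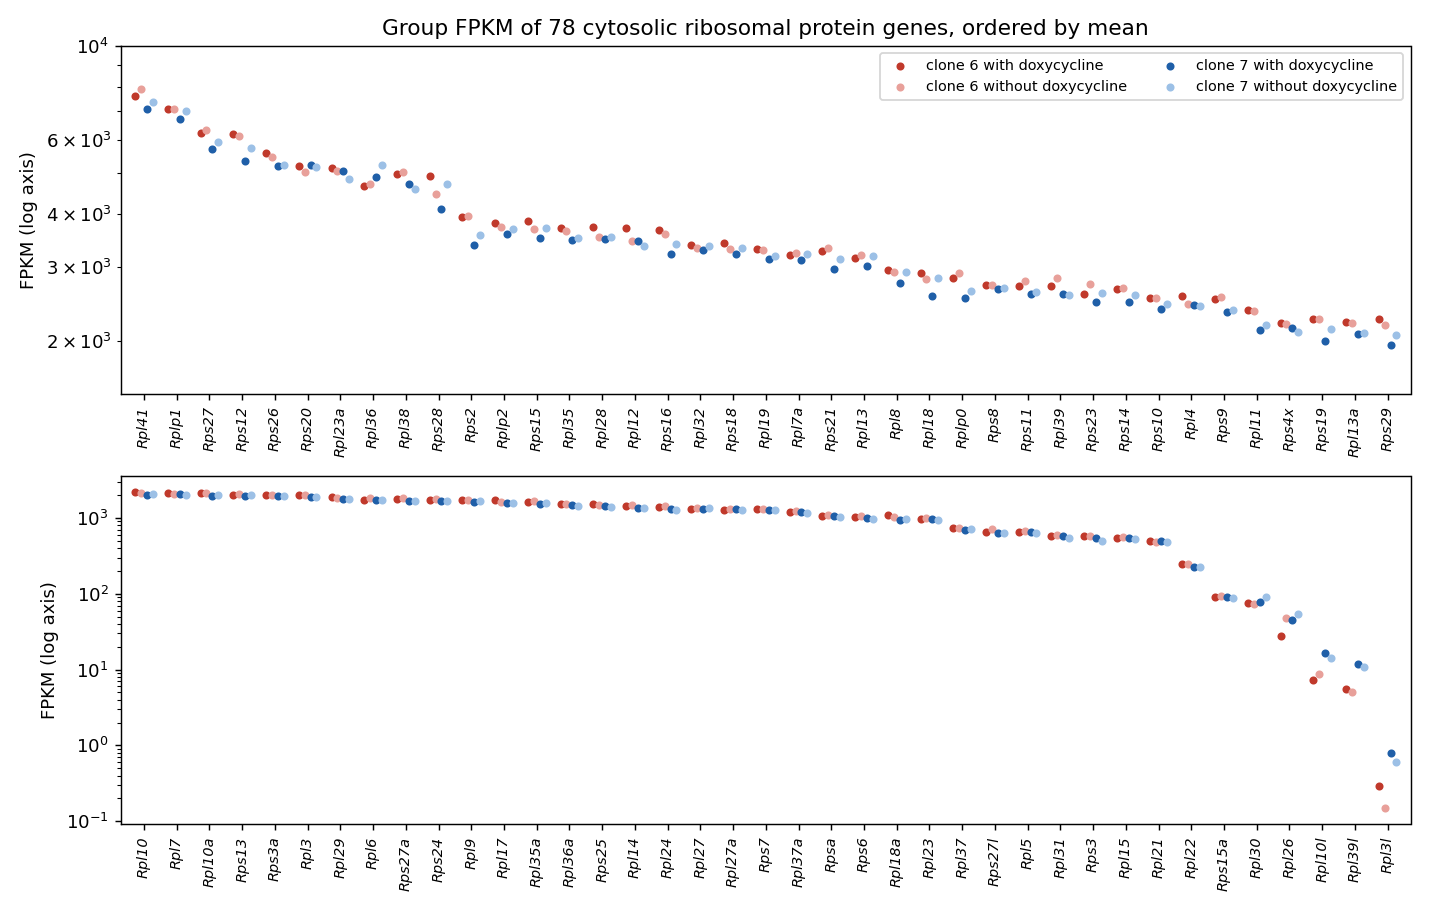
FPKM (log axis) of 78 of the 80 ribosomal protein genes in each of the 4 groups, ordered by their mean over groups from the upper to the lower panel; each point is 1 group value and red marks clone 6, blue clone 7. Most genes lie between 500 and 7916 FPKM with the 4 points close together, and Rpl10l, Rpl39l and Rpl3l stand far below.

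Rpl41, the shortest protein of the large subunit, had the highest level, at 7616 FPKM in clone 6 with doxycycline, 7916 in clone 6 without it, 7084 in clone 7 with it and 7380 in clone 7 without it; its deposited locus is chr10:128548110-128549168 (mm10). Rplp1, an acidic stalk protein, followed at 7085, 7084, 6727 and 7019 FPKM in the same order. Both were above the level of nearly every other gene of the table, since their means ranked 1 and 3 among all entries. Rps27, a zinc finger protein of the small subunit, had 6203, 6306, 5713 and 5913 FPKM. Rps12, which lies in the beak of the small subunit, had 6172, 6107, 5334 and 5730 FPKM. Rps26, which lies at the mRNA exit channel, had 5566, 5456, 5187 and 5213 FPKM. In each of these 5 genes clone 7 with doxycycline was the lowest group, while the highest was a clone 6 group.

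Rplp0, which anchors the stalk to the large subunit, had 2817 FPKM in clone 6 with doxycycline, 2900 in clone 6 without it, 2534 in clone 7 with it and 2626 in clone 7 without it. Rplp2, the other acidic stalk protein, had 3808, 3717, 3583 and 3692 FPKM. In yeast the stalk holds several copies of the acidic proteins for each copy of Rplp0. Here Rplp1 and Rplp2 were both above Rplp0 in every group, but so were Rpl41, Rps27, Rps12 and Rps26, which are not stalk genes. Whether the mRNA level goes with the number of protein copies was not tested.

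Rpl5 and Rpl11 form the 5S RNA particle, which can bind the p53 ligase Mdm2, as can Rpl23. Rpl5 had 658 FPKM in clone 6 with doxycycline, 675 in clone 6 without it, 663 in clone 7 with it and 628 in clone 7 without it. Rpl11 had 2370, 2356, 2127 and 2181 FPKM. Rpl23 had 963, 995, 972 and 934 FPKM. Rpl5 stood lower than its partner Rpl11 in each group although the particle holds 1 of each. The deposited Rpl5 locus (chr5:107900528-107987077) is far longer than a ribosomal protein gene. Of the 75-base stretches of Rpl5, 92.5% also occur in another gene, as do 61% of those of Rpl11. Whether locus length or shared sequence bears on the level of Rpl5 was not tested.

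The core genes with the lowest levels were Rpl26, Rpl30, Rps15a and Rpl22. Rpl26, which lies near the exit of the peptide tunnel, had 27.7 FPKM in clone 6 with doxycycline, 47.4 in clone 6 without it, 45.0 in clone 7 with it and 54.1 in clone 7 without it. Rpl30, at the interface of the subunits, had 76.0, 74.4, 77.0 and 90.6 FPKM. Rps15a had 89.6, 94.3, 90.5 and 87.1 FPKM, beside 53.8, 58.6, 55.3 and 61.5 FPKM of the separate entry Rps15a-ps4 and 80.1, 95.6, 90.1 and 90.1 FPKM of Rps15a-ps6. Rpl22, without which mice are viable, had 244, 245, 229 and 228 FPKM. Rps15a and Rpl22 lie outside the rule for named genes and were chosen after their values were seen. In Rps15a and Rpl22 the 4 groups lay close together. In Rpl30 the highest group was 1.22 times the lowest, the widest range of the core genes after Rpl26.

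Reads of 75 bases that fall in sequence shared with a copy cannot be placed with certainty, and the sources used here do not say how the authors counted such reads. Over the coding transcripts of each member in GENCODE M21 (mm10), the share of 75-base stretches that another annotated gene also holds had a median of 46.5%, and it was over 50% in 37 of 80 members. Rps27 was at 98.5%, Rpl10 at 91.9%, Rpl30 at 74.0% and Rpl26 at 57.5%, while Rps3, Rpl39l and Rpl3l shared none and Rpl10l 0.316%. Across the 76 core genes the share and the mean FPKM had a Spearman rho of 0.046, a description of genes measured in the same libraries. Levels of single core genes with a high share are therefore uncertain, Rpl26 and Rpl30 included. Rps15a and Rpl22, also among the lowest core genes, had shares of 4.13% and 1.42%. For Rps15a this was 211 of 5105 stretches, held by 5 other genes. Stretches of all coding transcripts of a gene were pooled, so a low share can go with a transcript that is largely shared. Whether shared sequence bears on the low levels was not tested.

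**Figure D2:**
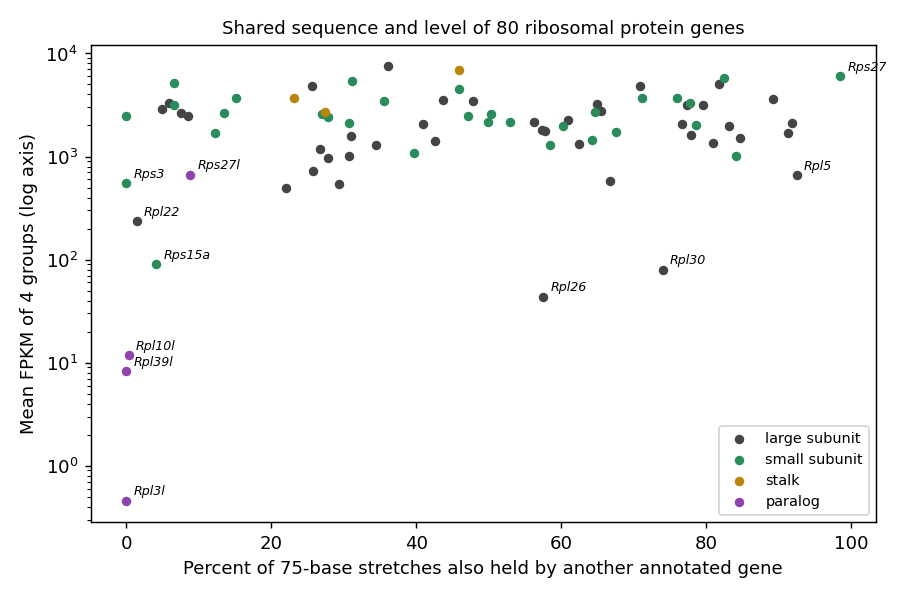
Mean FPKM over the 4 groups (log axis) against the percent of a gene's 75-base stretches that another annotated gene also holds, 1 point per member, coloured by class. Among core genes share and level had a Spearman rho of 0.046, and the 3 low paralogs stand at the left edge with Rps3, which also shares none.

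The level of one core gene relative to another was nearly the same in every group. The highest of the 4 group values was 1.08 times the lowest in the median core gene and at most 1.22 times the lowest in all core genes but Rpl26. Levels of the 76 core genes had a Spearman rho of 0.998 between clone 6 with and without doxycycline, between clone 7 with and without doxycycline and between the untreated clones. The highest group was clone 6 with doxycycline in 33 core genes, clone 6 without it in 38, clone 7 with it in 2 and clone 7 without it in 3. The lowest group was clone 7 with doxycycline in 45 and clone 7 without it in 25.

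The first question was whether induction of the transgene goes with a change of these genes in clone 6. No ribosomal protein gene passed the test: 0 of 79 tested members were called, where a call is a q under 0.05 in the authors' deposited table, against 14 of 13003 genes (0.108%). Rpl3l had no test. By its p before adjustment (under 0.05), the authors' deposited table held 0 members and 1.08% of all genes. The median difference with doxycycline was -0.0044 on the log2(FPKM + 1) scale, with 37 of 79 above 0 (46.8%), against 0.0005 over the 12156 genes with a mean of at least 1 FPKM, of which 50.2% were above 0. Scaled to the same FPKM sum in each group, the members' median was 0.0104 and that of all genes 0.0141, so the sign of the members' median is set by the scaling and it stayed just below the median of all genes.

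Rps28, which lies at the mRNA exit of the small subunit, had the largest upward difference in clone 6, with 4906 FPKM with doxycycline and 4454 without it (log2 0.14, approximate SE 0.175, p = 0.426 in the authors' deposited table). Rpl12, at the base of the stalk, had 3713 FPKM with doxycycline and 3450 without it. Rpl28 had 3725 FPKM with doxycycline and 3517 without it, and Rpl17 1707 and 1613 FPKM. At the other end, and largest in size of all members, stood Rpl26 (27.7 FPKM with doxycycline and 47.4 without it, log2 -0.75), whose approximate SE of 1.58 is the largest of these genes. Rpl10l had 7.25 FPKM with doxycycline and 8.85 without it, and Rps27l 664 and 722 FPKM. Rpl6 had 1738 FPKM with doxycycline and 1839 without it, and Rps23, which lies at the decoding centre, 2586 and 2727 FPKM. Each of these differences was smaller than its approximate SE. The SE of a core gene, read back from its deposited p by a normal approximation, had a median of 0.166, so a difference of about 0.33 on the log2 scale would have been needed for a p of 0.05 before adjustment.

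Doxycycline alone was tested in clone 7, which has no transgene. No ribosomal protein gene passed the test there either, with 0 of 79 tested members called, against 0 of 12908 genes (0%), by the authors' deposited q. By its p before adjustment (under 0.05), it held 0 members and 0.108% of genes. The median difference was -0.0136 with 30 of 79 above 0 (38.0%), against 0.0205 over all genes, of which 57.8% were above 0. Small subunit genes had a median of -0.0327 with 8 of 31 above 0, and large subunit genes one of -0.0049 with 20 of 42 above 0.

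Rpl10l had the largest upward difference in clone 7, at 16.8 FPKM with doxycycline and 14.4 without it. Rps3, at the mRNA entry of the small subunit, had 540 FPKM with doxycycline and 504 without it. Rpl31 had 579 FPKM with doxycycline and 547 without it. Rpl5 had 663 FPKM with doxycycline and 628 without it, and Rpl23a, which borders the tunnel exit, 5053 and 4837 FPKM. At the other end, Rps28 had 4102 FPKM with doxycycline and 4702 without it (log2 -0.20, approximate SE 0.193, p = 0.307 in the authors' deposited table, the smallest of the members). Rpl18 had 2551 FPKM with doxycycline and 2814 without it. Rpl30 and Rpl26 were lower by more on the log2 scale (-0.23 and -0.26), with approximate SEs of 0.81 and 1.57. Rps28 thus stood at opposite ends in the clones, and passed the test in neither; over the 76 core genes the doxycycline differences of the 2 clones had a Spearman rho of -0.192.

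**Figure D3:**
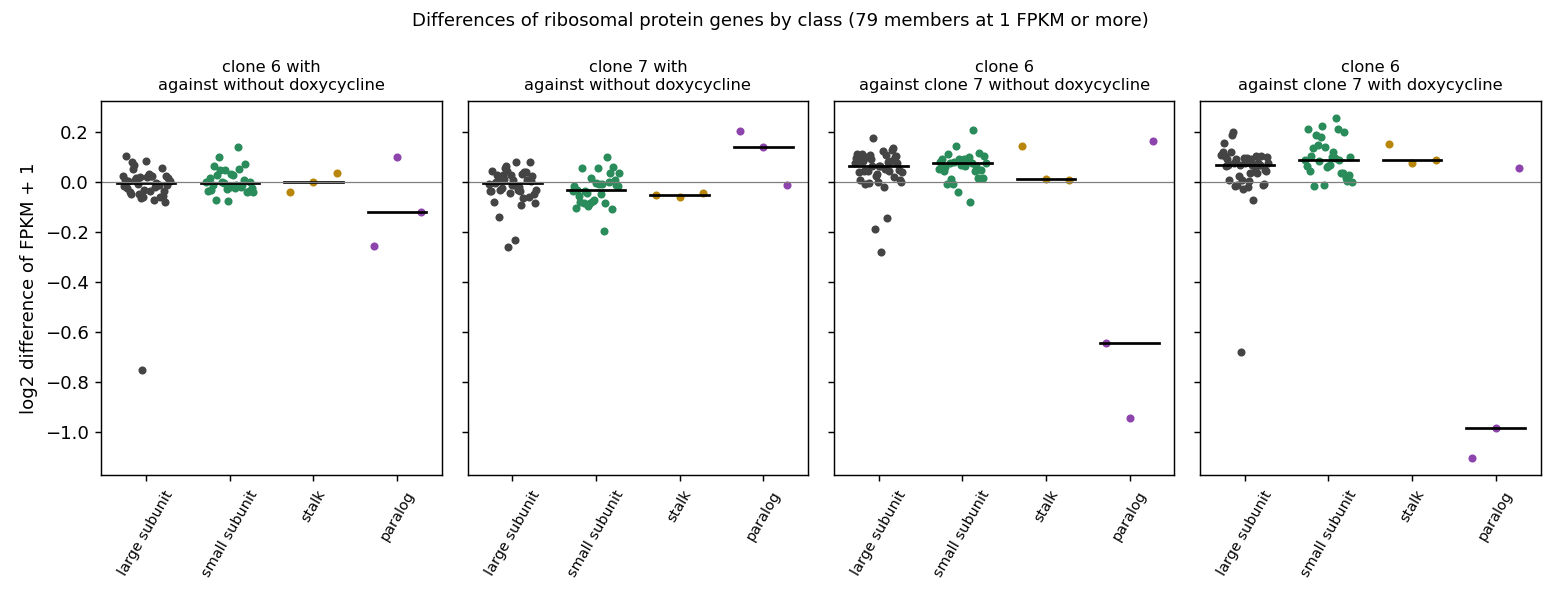
Difference on the log2(FPKM + 1) scale of each of the 79 members with a mean of at least 1 FPKM, by class, in the 4 comparisons; each point is 1 gene, the black bar is the class median and the grey line is 0. Core genes lie close to 0 in the doxycycline comparisons and mostly just above it in the clone comparisons, Rpl26 is the low outlying large subunit gene, and Rpl10l and Rpl39l lie far below 0 between the clones.

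Between the clones, most core genes had the higher value in clone 6 and no member was called. With doxycycline 0 of 79 tested members were called, against 199 of 13064 genes (1.52%) in the authors' deposited table. Without doxycycline 0 of 79 were called, against 179 of 13047 genes (1.37%). The median difference of the members was 0.0749 with doxycycline, with 67 of 79 above 0 (84.8%), against -0.0192 over all genes, of which 45.9% were above 0. Without doxycycline it was 0.065, with 66 of 79 above 0 (83.5%), against -0.0014 and 49.3%. Single core genes had approximate SEs with a median of 0.180 with doxycycline and 0.167 without it; the error of the median over the members is unknown. Of the 76 core genes, 60 were higher in clone 6 in both states, as were 34.1% of all genes.

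The 126 other genes with a mean of at least 500 FPKM had a median of -0.0293 with doxycycline, with 42.1% above 0, and of 0.0375 without it, with 61.9% above 0. Large subunit genes had medians of 0.0694 with doxycycline and 0.0631 without it, and small subunit genes 0.0888 and 0.0742. Every scaling tried kept the members' medians above 0, between 0.0585 and 0.0984 with doxycycline and between 0.0261 and 0.0877 without it. Genes of the same libraries move together, so these counts are not so many separate observations, and whether the lean exceeds the spread between libraries was not tested. Nor was it tested whether other differences of the clones move with it: 10 fibroblast feeder markers summed to 239 FPKM in clone 6 with doxycycline, 238 in clone 6 without it, 187 in clone 7 with it and 192 in clone 7 without it, with none at 0 and Col1a1 at 140, 132, 86.8 and 92.8 FPKM of these sums. The clone difference of the sums lay mostly in Col1a1. Of the 9 markers with a mean of at least 1 FPKM, 6 were higher and 3 lower in clone 6 in each state. Of all genes, 45.9% were higher in clone 6 with doxycycline and 49.3% without it. Col6a1 and Thy1 were lower in clone 6 in both states. The 8 ES cell markers summed to 3389, 3206, 3358 and 3060 FPKM, and of these Nanog and Zfp42 were called higher and Sox2 lower in clone 6 in both states. In RNA from whole cultures, fewer cells of a type and less RNA per cell cannot be told apart.

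Of the core genes, Rps28 had the largest upward difference with doxycycline, at 4906 FPKM in clone 6 and 4102 in clone 7 (log2 0.26, approximate SE 0.189, p = 0.173 in the authors' deposited table). Rps2 had 3936 FPKM in clone 6 and 3371 in clone 7, and Rps12 6172 and 5334 FPKM. Rps29, a zinc finger protein of the small subunit, had 2259 FPKM in clone 6 and 1952 in clone 7. At the low end with doxycycline, Rpl36 had 4649 FPKM in clone 6 and 4892 in clone 7, and Rpl27a 1293 and 1318 FPKM. Rpl26 had 27.7 FPKM in clone 6 and 45.0 in clone 7, with an approximate SE of 1.75 on the log2 scale. Without doxycycline, Rps3 had the largest upward difference, at 582 FPKM in clone 6 and 504 in clone 7 (log2 0.21, approximate SE 0.165, p = 0.207 in the authors' deposited table). Rpl24, which forms a bridge between the subunits, had 1448 FPKM in clone 6 and 1280 in clone 7. Rps2, at the mRNA entry, had 3943 FPKM in clone 6 and 3569 in clone 7, and the stalk gene Rplp0 2900 and 2626 FPKM. At the other end, Rpl36 had 4716 FPKM in clone 6 and 5210 in clone 7, and Rpl30 74.4 and 90.6 FPKM. Rpl26 had 47.4 FPKM in clone 6 and 54.1 in clone 7. Rps28 was below its clone 7 level there (log2 -0.08), and over the 76 core genes the clone differences of the 2 states had a Spearman rho of 0.152.

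Of the paralogs, Rpl3l, Rpl10l and Rpl39l stood below every core gene in level, and Rps27l did not. Rpl10l, which replaces Rpl10 in meiotic male germ cells of the mouse, had 7.25 FPKM in clone 6 with doxycycline, 8.85 in clone 6 without it, 16.8 in clone 7 with it and 14.4 in clone 7 without it; its deposited locus is chr12:66283379-66284401 (mm10). Both clone 6 values were below both clone 7 values. With doxycycline its FPKM in clone 6 was 0.432 times that in clone 7 (log2 ratio without pseudocount -1.21, approximate SE 0.384), with p = 0.00165 and q = 0.12 in the authors' deposited table. Without doxycycline this log2 ratio was -0.70, with p = 0.0398 and q = 0.864 in the authors' deposited table. Its partner Rpl10, which reaches towards the tRNA sites of the large subunit, had 2201, 2165, 2041 and 2051 FPKM, so Rpl10l stood at 0.329%, 0.409%, 0.821% and 0.703% of it.

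Rpl39l, a testis-enriched paralog of Rpl39 in the mouse, had 5.51 FPKM in clone 6 with doxycycline, 5.08 in clone 6 without it, 11.9 in clone 7 with it and 10.7 in clone 7 without it; its deposited locus is chr16:10170228-10174911 (mm10). The clone 6 values were again both below the clone 7 values. On the log2(FPKM + 1) scale the difference between clone 6 and clone 7 was -0.99 with doxycycline (p = 0.00425, q = 0.23 in the authors' deposited table) and -0.94 without it (p = 0.00455, q = 0.241 in that table). The differences of Rpl10l on this same scale were -1.11 with doxycycline and -0.65 without it. Rpl39, which lines the exit tunnel, had 2701, 2818, 2579 and 2563 FPKM, so Rpl39l stood at 0.204%, 0.18%, 0.461% and 0.417% of it. Rpl10l and Rpl39l were the members with a deposited p under 0.05 before adjustment between the clones, 2 of 79 in each state and both lower in clone 6. Such a p was held by 7.9% of genes with doxycycline, 3.36% with the lower value in clone 6, and by 6.59% without it, 3.02% with the lower value in clone 6.

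Rpl3l, the form of Rpl3 in heart and skeletal muscle, had 0.290 FPKM in clone 6 with doxycycline, 0.149 in clone 6 without it, 0.798 in clone 7 with it and 0.600 in clone 7 without it. It was the one member under 1 FPKM in every group and the one without a test. Its partner Rpl3, near the peptidyl transferase centre, had 2042, 2007, 1908 and 1922 FPKM. Rps27l, a p53 target in human cells, behaved in level like a core gene, with 664, 722, 639 and 644 FPKM, or 10.7%, 11.4%, 11.2% and 10.9% of its partner Rps27. Its largest clone difference was without doxycycline (log2 0.17, approximate SE 0.188).

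**Figure D4:**
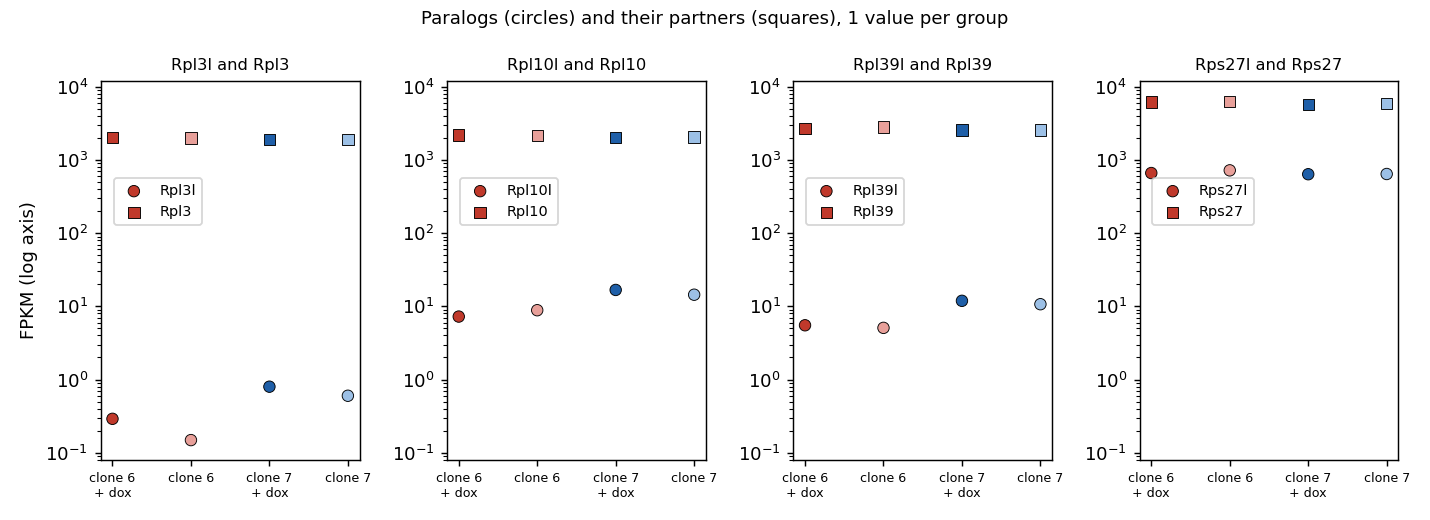
FPKM (log axis) of the 4 paralogs (circles) and their partners (squares) in clone 6 with and without doxycycline and in clone 7 with and without doxycycline, 1 value per group. Rpl10l and Rpl39l are lower in both clone 6 groups than in both clone 7 groups while Rpl10 and Rpl39 are nearly level, and Rps27l stands about as far below Rps27 in every group.

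Other genes of the translation machinery were counted from lists drawn up from general knowledge. Of 18 translation factors and related genes whose mRNAs are of the TOP type, 0 were called in each of the 4 comparisons of the authors' deposited table, where between 0% and 1.52% of all genes were. Eef1a1, which brings tRNA to the ribosome, had 7481 FPKM in clone 6 with doxycycline, 7315 in clone 6 without it, 7026 in clone 7 with it and 6893 in clone 7 without it. Eef2, the translocation factor, had 1922, 1900, 1793 and 1848 FPKM. The median clone difference of this list was 0.0715 with doxycycline, with 12 of 18 above 0 (45.9% of all genes), and 0.0738 without it, with 16 of 18 above 0 (49.3% of all genes). The 18 core genes mutated in human Diamond-Blackfan anaemia had median clone differences of 0.0909 with doxycycline and 0.07 without it. Of these 18, 16 and 15 were above 0 (88.9% and 83.3%), against 45.9% and 49.3% of all genes. All 76 core genes were much alike, with medians of 0.0756 and 0.0653 and 86.8% and 85.5% above 0. Between the clones 0 of the 18 were called, against 1.52% and 1.37% of all genes.

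Of 46 ribosome biogenesis genes, 1 was called between the clones, higher in clone 6 in both states, against 1.52% of all genes with doxycycline and 1.37% without it. This was Utp14a, a processome factor of the small subunit on the X chromosome, at 93.4 FPKM in clone 6 with doxycycline, 96.2 in clone 6 without it, 43.6 in clone 7 with it and 44.3 in clone 7 without it (p = 5e-05 in both states, the smallest value that the authors' deposited table holds). The other 45 had no call, and the median of the list between the clones was -0.0872 with doxycycline, where 9 of 46 were above 0 (45.9% of all genes), and -0.0075 without it, where 22 of 46 were (49.3% of all genes). With against without doxycycline 0 of the 46 were called in either clone, against 0.108% of all genes in clone 6 and 0% in clone 7. The median of the list was -0.0414 in clone 6, with 8 of 46 above 0 (50.2% of all genes), and 0.0285 in clone 7, with 30 of 46 above 0 (57.8% of all genes); the difference between the clones was not tested. Nucleolin (Ncl), a nucleolar factor of rRNA synthesis, had 319, 344, 362 and 338 FPKM. Of 17 genes that signal to translation, 1 was called between the clones with doxycycline, against 1.52% of all genes. The median clone difference of this list was then -0.0915, with 5 of 17 above 0 (45.9% of all genes). Without doxycycline 0 were called between the clones, against 1.37% of all genes. The median was -0.0192 there, with 7 of 17 above 0 (49.3% of all genes). With against without doxycycline 0 of the 17 were called in either clone, against 0.108% of all genes in clone 6 and 0% in clone 7. The called gene was Mycn, a Myc family activator of ribosome genes. With doxycycline it was lower in clone 6, at 116 FPKM in clone 6 and 207 in clone 7 (p = 5e-05 in the authors' deposited table). Without doxycycline it had 134 FPKM in clone 6 and 191 in clone 7, and its p of 0.0048 in the authors' deposited table gave no call.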

How the data were processed

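The authors deposited 1 gene table with the columns of a Cuffdiff output, holding 6 comparisons of 4 groups. Per the submitters' processing notes, TopHat2 2.0.8, Cufflinks 2.1.1 and build mm10 were used; the sources used here give no annotation, strand setting, normalization mode or treatment of reads with several places. Levels are the authors' FPKM per group, both libraries combined, so library depths are unknown and no SD exists. FPKM is a relative measure, here with a scaling between libraries that is not given, so a change of all transcripts alike is not seen. The deposited p-values and q-values were used as given. The deposited q was checked against Benjamini-Hochberg adjustment over all 78127 tests, with a largest difference of 5.21e-07.

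A gene was called where it was tested and q was under 0.05. Differences were computed as log2(FPKM + 1), a scale that understates changes of low genes, over genes with a mean of at least 1 FPKM. Approximate SEs came from the deposited p (under 0.95) and the log2 ratio without pseudocount. A run on simulated data checked only the arithmetic of this step, because its p-values were made with the same normal formula. Whether the deposited p-values follow a normal test was not tested. Named genes were, per comparison, the 5 largest and 5 smallest differences among members with a mean of at least 10 FPKM and the 3 smallest p, plus the 5 highest and 5 lowest levels and the stalk, 5S and paralog genes. A few genes that these rules name are not reported here. Members and lists were chosen with earlier results of these data known. Samples were grouped by their titles per the labels. The 75-base stretches of the members' coding transcripts in GENCODE M21 were searched, in both orientations, in all transcripts of other genes there. Alternatives were other pseudocounts, filters, scalings, thresholds and member sets. Python 3.11.15, pandas 2.3.3, numpy 2.4.6 and scipy 1.17.1 were used.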

Additional observations from a re-analysis of the deposited data

How the results depend on the processing

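The median difference of the ribosomal protein genes between clone 6 with and without doxycycline, reported as -0.0044, was 0.0104 after scaling each group to the same FPKM sum and 0.0186 after the same scaling without ribosomal protein genes, and ran from -0.0427 to 0.0186 over all alternatives; these scalings shift every gene alike, and the median of all genes was 0.0005 as reported, 0.0141 and 0.0222. Between clone 6 and clone 7, counts of members by the deposited p before adjustment (under 0.05) were 2 without doxycycline and 2 with it, against 0 called in each. The other 72 of 76 recomputed values stayed within the limits set for them (0.05 on the log2 scale with the same sign, 1 percentage point for shares, the same count of calls). The median in clone 7 with against without doxycycline ran from -0.0355 to -0.0121. Restricting to members with at most 50% shared stretches and adjusting p over the 4 comparisons used here were chosen after seeing the data; the clone medians were then 0.082 with doxycycline and 0.0746 without it, and 0 members were called. No paired analysis was possible because each group has 1 deposited value that combines both libraries, and for the same reason no library could be left out. Unknown depth, shared sequence and 1 clone per line limit what single members show.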

Other observations

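The Rpl34 locus, chr3:130726831-130730329 (mm10), was deposited as 2 entries, one named for Rpl34 and its pseudogene Rpl34-ps1 together and one named for the pseudogene alone, and lies outside the members for that reason. The entry with both names had 706 FPKM in clone 6 with doxycycline, 153 in clone 6 without it, 122 in clone 7 with it and 165 in clone 7 without it. The entry with the pseudogene name had 1478, 2078, 1990 and 1968 FPKM in the same order. Their sum was 2184, 2231, 2111 and 2133 FPKM, a level like that of the median member and nearly the same in every group. The entry with both names held 32.3% of that sum in clone 6 with doxycycline, against 6.85%, 5.77% and 7.74% in the other groups. The entry with both names had p = 0.183 in clone 6 with against without doxycycline in the authors' deposited table, so this split was not called.

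Genes that encode ribosomal proteins or paralogs under other symbols stood at varied levels. Fau, a fusion with Rps30, had 1763 FPKM in clone 6 with doxycycline, 1783 in clone 6 without it, 1603 in clone 7 with it and 1663 in clone 7 without it. Rpl36al, a paralog of Rpl36a, had 892, 893, 908 and 937 FPKM. Rpl22l1, a paralog of Rpl22, had 252, 240, 226 and 209 FPKM, a level close to that of Rpl22 itself in each group. Rpl7l1, a paralog of Rpl7, had 83.6, 86.6, 91.3 and 86.8 FPKM. None of them was called in the authors' deposited table in any of the 4 comparisons.

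Rps4y2, which RefSeq annotates as a transcribed pseudogene named Rps4l, had 766 FPKM in clone 6 with doxycycline, 729 in clone 6 without it, 807 in clone 7 with it and 870 in clone 7 without it, and its deposited locus, chr6:148047416-148444352, spans far more than 1 ribosomal protein gene.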
